A study of Mus musculus with 8 samples.

Results

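The genes described here are 10 C-type lectin receptors of mouse macrophages, namely Clec4e, Clec4d, Clec4n, Clec4a1, Clec4a2, Clec4a3, Clec5a, Clec7a, Clec10a and Clec12a, found by symbol among the 18635 genes of the RNA-seq table. The family was picked because Clec4e was higher in the Cre-carrying cells, so Clec4e is described without a test, and the other 9 genes were chosen by family name with results of these data known. All 10 symbols were found once, and all 10 passed the filter on low values, a mean normalized count of at least 10 over the 8 samples. RNA came from bone marrow-derived macrophages (BMDMs) grown from mice aged 6 to 8 weeks on a C57BL/6 background, either Phgdh fl/fl or their littermates of genotype Phgdh fl/fl Cx3cr1-Cre. After differentiation in medium conditioned by L929 fibroblasts, the cells of both genotypes spent 24 h in AE17-TCM, medium conditioned by AE17 cells, a murine mesothelioma line, and are called tumor-educated macrophages (TEMs). There were 4 samples of each genotype, which the study describes as biologically independent. Every sample carried the floxed Phgdh alleles and had the AE17-TCM exposure, and no unexposed sample was part of this experiment. Cre is expressed from the Cx3cr1 locus, where it replaces 1 allele, and the Phgdh fl/fl group carried no Cre, so loss of Phgdh, the Cre protein and the lost Cx3cr1 allele cannot be told apart as sources of a difference.

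C-type lectin receptors are membrane proteins whose carbohydrate-recognition fold binds sugars and lipids of fungi, bacteria and damaged cells. The activating receptors of myeloid cells signal through an ITAM motif, either in a partner adaptor (FcRγ, encoded by Fcer1g, or DAP12, encoded by Tyrobp) or in a shorter form in their own tail. The ITAM recruits the kinase SYK, and the CARD9-BCL10-MALT1 complex then passes the signal to NF-κB. Inhibitory receptors of the same fold carry an ITIM motif that recruits the phosphatases SHP-1 and SHP-2 (Ptpn6 and Ptpn11).

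Of these genes, 9 lie on mouse chromosome 6 and 1, Clec10a, on chromosome 11 (GENCODE M21, mm10). The Clec4 genes form a cluster from the start of Clec4a1 at chr6:122921848-122934619 (plus strand) to Clec4e at chr6:123281789-123289870 (minus strand). Clec12a (chr6:129342691-129365303, plus strand) and Clec7a (chr6:129461591-129472779, minus strand) lie farther along the chromosome, and Clec5a (chr6:40574894-40585821, minus strand) lies on the other side of the cluster. The bases before the transcript start of 5 of the genes are shown because neighbours on chromosome 6 differed in response. In the cluster these were Clec4e beside Clec4d and Clec4a1 beside Clec4a3. Outside the cluster, Clec7a rose while its neighbour Clec12a, whose window is not shown, fell. Each run is the 250 bases upstream of the RefSeq start (GRCm38.p6), read 5′ to 3′ along the gene's strand, and the windows lie upstream of the annotated exons at chr6:123289872-123290121 (Clec4e, minus), chr6:123261857-123262106 (Clec4d, plus), chr6:122921598-122921847 (Clec4a1, plus), chr6:122952265-122952514 (Clec4a3, plus) and chr6:129472780-129473029 (Clec7a, minus). Capitals mark exact matches, on either strand, to the PU.1 core GAGGAA, the C/EBP motif TTGCNNAA and the TATA box TATAAA, none of which overlap each other in these windows.
Clec4e: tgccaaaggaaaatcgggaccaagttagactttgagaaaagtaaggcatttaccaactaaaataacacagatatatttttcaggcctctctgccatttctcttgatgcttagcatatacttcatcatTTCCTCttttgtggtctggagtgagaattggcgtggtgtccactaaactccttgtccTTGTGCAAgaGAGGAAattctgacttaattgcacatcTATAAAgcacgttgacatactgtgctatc
Clec4d: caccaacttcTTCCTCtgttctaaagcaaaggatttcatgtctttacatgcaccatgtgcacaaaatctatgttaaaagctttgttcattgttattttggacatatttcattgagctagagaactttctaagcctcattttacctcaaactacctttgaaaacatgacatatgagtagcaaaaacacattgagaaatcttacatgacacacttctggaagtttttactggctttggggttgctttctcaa
Clec4a1: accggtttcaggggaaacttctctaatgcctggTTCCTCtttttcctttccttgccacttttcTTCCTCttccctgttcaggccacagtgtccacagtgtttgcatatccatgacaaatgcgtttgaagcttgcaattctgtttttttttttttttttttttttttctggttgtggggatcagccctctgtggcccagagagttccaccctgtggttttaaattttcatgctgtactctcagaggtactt
Clec4a3: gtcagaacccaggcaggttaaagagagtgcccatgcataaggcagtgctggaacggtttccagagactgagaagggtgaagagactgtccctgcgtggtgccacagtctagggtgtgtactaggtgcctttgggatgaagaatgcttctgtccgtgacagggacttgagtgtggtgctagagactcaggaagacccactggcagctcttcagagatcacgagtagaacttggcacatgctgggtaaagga
Clec7a: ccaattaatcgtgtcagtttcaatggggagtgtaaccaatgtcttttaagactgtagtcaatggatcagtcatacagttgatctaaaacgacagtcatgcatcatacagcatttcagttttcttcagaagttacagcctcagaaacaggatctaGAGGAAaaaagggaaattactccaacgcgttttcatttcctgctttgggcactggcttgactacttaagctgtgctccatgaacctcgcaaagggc

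RefSeq promoters were matched for 8 of the 10 genes, and Clec4n and Clec10a had no entry in the table used. The PU.1 core, bound by the myeloid factor PU.1, was present in the window of the first listed start of 6 of the 8 genes, against 23.3% of 32817 mouse promoters of the same length. Upstream of Clec4e it occurred with its first base 123 and 56 bases before the start, beside a C/EBP match (TTGTGCAA) that began 66 bases before the start and a TATA box 29 bases before it. At the first listed start, C/EBP matches were found for 2 of 8 genes (9.57% of all promoters) and the AP-1 motif TGANTCA for 1 of 8 (6.75%). The letters TATAAA were found for 3 of 8 (12.4%). They began 29 bases before the start in Clec4e, 161 in Clec4a2 and, on the other strand, 209 in Clec5a. The Clec4a2 and Clec5a windows hold 68 and 16 bases of annotated exons. The Clec12a window, whose 250 bases all lie in exons that GENCODE annotates for other starts, supplied the AP-1 match, 1 of the 2 C/EBP matches and 1 of the 6 windows with a PU.1 core. An NF-κB motif and the core of the interferon-stimulated response element were found in 0 of 8, against 0.357% and 2.97% of all promoters. Clec4a3 had no match in the window shown, and 1 PU.1 core in the window of a second start. These are letters in a window and say nothing of whether a factor was bound.

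The targeted gene was checked first. Phgdh, the first enzyme of serine synthesis from glycolysis, had normalized counts of 119, 129, 117 and 105 in Phgdh fl/fl TEMs and 32.6, 35.3, 14.2 and 26.3 in the Cre samples. It was lower in every Cre sample, by a log2 fold change of −2.15 (SE 0.21, limma adjusted p = 5.1e-08; exact two-sided permutation p = 0.0286, the smallest that 70 labelings of 4 against 4 allow). Cx3cr1, the fractalkine receptor gene that carries the Cre, fell from a mean of 1075 ± 94.2 to 660 ± 32.2 (SD, n = 4; log2 fold change −0.70, adjusted p = 1.9e-09), as also in every Cre sample. A normalized count is the reads of a gene divided by the size factor of the sample, and samples held 38219563 to 47027420 reads counted on genes. All fold changes below are Cre over fl/fl on the log2(normalized count + 1) scale, with limma p-values adjusted by the Benjamini-Hochberg method over the 13629 genes tested. In bulk RNA, fewer cells of a type and less RNA per cell cannot be told apart.

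The receptors did not move as 1 block. Clec4e was higher and 4 of the other 9 genes rose (Clec4n, Clec4a3, Clec5a and Clec7a), 4 fell (Clec4a1, Clec4a2, Clec10a and Clec12a) and Clec4d passed no test. Of all 13629 genes tested, 41% were called at an adjusted p under 0.05, 20.8% higher and 20.3% lower. The groups did not overlap in 8 of the 9 genes, 4 higher and 4 lower, and over all genes tested they did not overlap in 36.7%, 18.4% higher and 18.2% lower. These counts are a description, since the genes were chosen with results known. The median log2 fold change of the 9 genes was 0.03, and of all genes tested −0.0018.

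Clec4e, which encodes Mincle, a receptor for the mycobacterial glycolipid trehalose dimycolate that signals through FcRγ, had normalized counts of 4504, 4573, 4307 and 4829 in Phgdh fl/fl TEMs and of 9241, 8323, 7677 and 9405 in the Cre samples. The groups did not overlap, and the lowest Cre sample lay above the highest fl/fl sample. The mean was 4554 ± 216 in Phgdh fl/fl and 8662 ± 810 in Phgdh fl/fl Cx3cr1-Cre TEMs (SD, n = 4), a ratio of 1.90 and a log2 fold change of 0.92 with an SE of 0.05. No p is given because this rise chose the family.

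Clec4d, which encodes MCL, the partner of Mincle that also couples to FcRγ, had normalized counts of 67170, 67623, 70559 and 71346 in Phgdh fl/fl TEMs and 71740, 70016, 70801 and 69364 in the Cre samples. The 2 sets overlapped, with means of 69175 ± 2086 and 70480 ± 1025. Its log2 fold change was 0.03 (SE 0.02, adjusted p = 0.383), and the difference between genotypes was smaller than the spread within the fl/fl group. The neighbouring Clec4e and Clec4d thus had log2 fold changes of 0.92 and 0.03, and the difference between these genes was not tested.

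Clec4n, which encodes Dectin-2, a receptor for fungal mannans, had normalized counts of 9405, 9924, 9640 and 9353 in Phgdh fl/fl TEMs and 14169, 13671, 14058 and 14174 in the Cre samples. It was higher in 4 of 4 Cre samples, with a mean of 9581 ± 261 against 14018 ± 237 (log2 fold change 0.55, SE 0.02, adjusted p = 2.2e-13). Clec7a, which encodes Dectin-1, the β-glucan receptor that carries its own ITAM-like motif, had normalized counts of 3399, 3046, 3274 and 3428 against 4030, 4264, 4343 and 4361. Clec7a rose from 3287 ± 174 to 4250 ± 152, a log2 fold change of 0.37 (SE 0.03, adjusted p = 2.8e-08), and the groups did not overlap.

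Clec5a, which encodes MDL-1, a receptor that signals through DAP12, had normalized counts of 1707, 1483, 1710 and 1708 in Phgdh fl/fl and 2053, 1912, 1906 and 2166 in Cre TEMs. The second fl/fl sample was lower than the rest, and without it the log2 fold change was 0.23. Clec5a rose from 1652 ± 113 to 2009 ± 125 (log2 fold change 0.28, SE 0.05, adjusted p = 4.6e-05).

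The DCIR genes Clec4a1, Clec4a2 and Clec4a3, neighbours of related sequence, differed in direction. Clec4a3 had normalized counts of 1506, 1586, 1553 and 1678 in Phgdh fl/fl TEMs and 1786, 1991, 1919 and 1855 in Cre TEMs, with every Cre sample above every fl/fl sample. It rose from 1581 ± 72.8 to 1888 ± 88.0 (log2 fold change 0.26, SE 0.04, adjusted p = 1.9e-05). Clec4a1 had normalized counts of 30740, 29935, 30384 and 30606 against 26453, 27858, 28087 and 26970, a fall by 0.15 on the log2 scale (SE 0.02, adjusted p = 1.2e-05) without overlap. Clec4a2, which encodes DCIR, an ITIM-bearing inhibitory receptor, had normalized counts of 3776, 3909, 3988 and 3948 against 3544, 3621, 3720 and 3484. It fell by 0.12 on the log2 scale (SE 0.03, adjusted p = 0.00147), and the groups again did not overlap. Among the 3, the coding sequences are 70.64% to 76.24% identical over their aligned bases, with a longest shared run of 39 bases.

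Clec12a, which encodes MICL, an inhibitory receptor with an ITIM, had normalized counts of 22354, 22605, 23314 and 23585 in Phgdh fl/fl TEMs and 19934, 20124, 20336 and 20276 in Cre TEMs. It fell by 0.19 on the log2 scale (SE 0.02, adjusted p = 7.2e-07), in 4 of 4 Cre samples below the fl/fl range. Clec10a, which encodes MGL1, a receptor for galactose-type sugars often used as a marker of alternatively activated macrophages, had normalized counts of 163, 171, 160.2 and 176 against 140.6, 119.5, 134.2 and 110.9. Clec10a fell by 0.41 on the log2 scale (SE 0.10, adjusted p = 0.00209), and no sample of 1 group reached the range of the other.

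**Figure D1:**
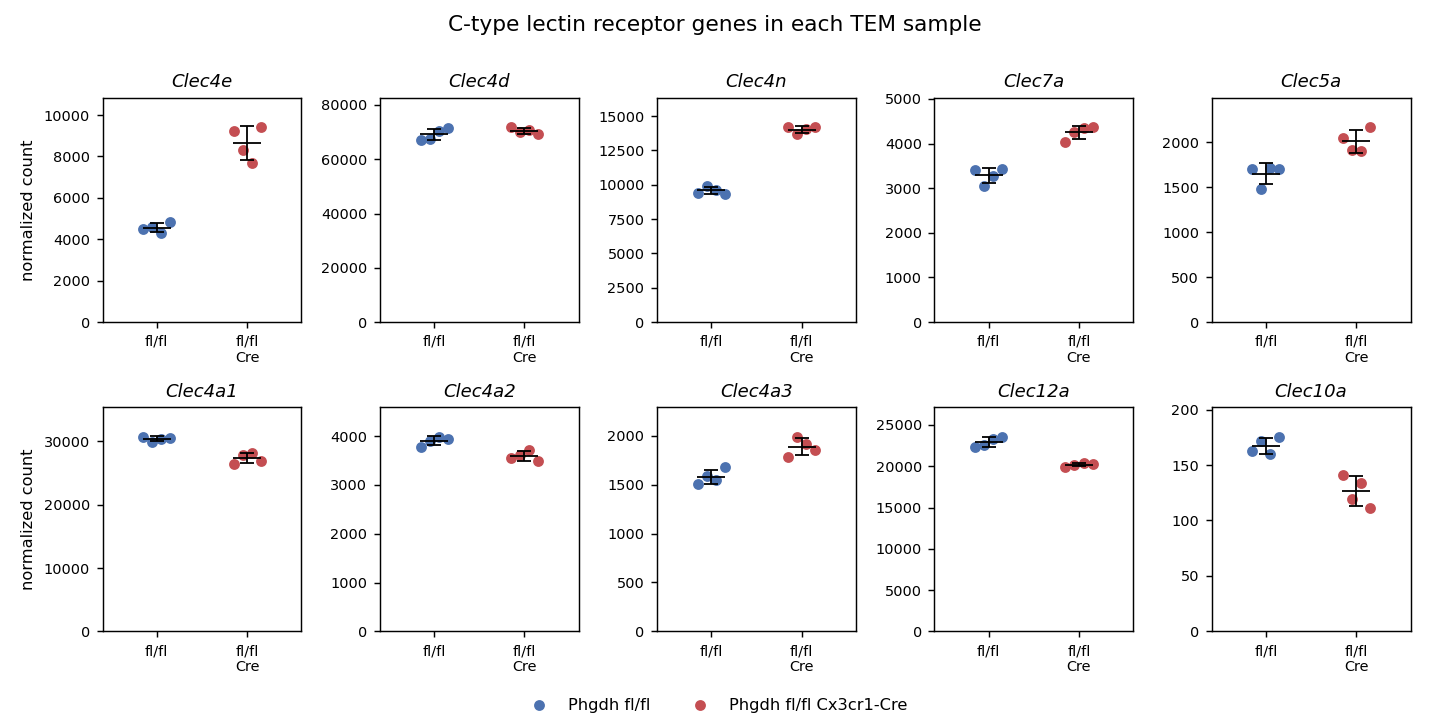
Normalized count (vertical axis, from 0) of each receptor gene in the 4 Phgdh fl/fl (blue) and 4 Phgdh fl/fl Cx3cr1-Cre (red) TEM samples, with the mean as a horizontal bar and the SD as whiskers. The groups overlap only in Clec4d, and Clec10a, at 111 to 176, has the lowest counts.

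**Figure D2:**
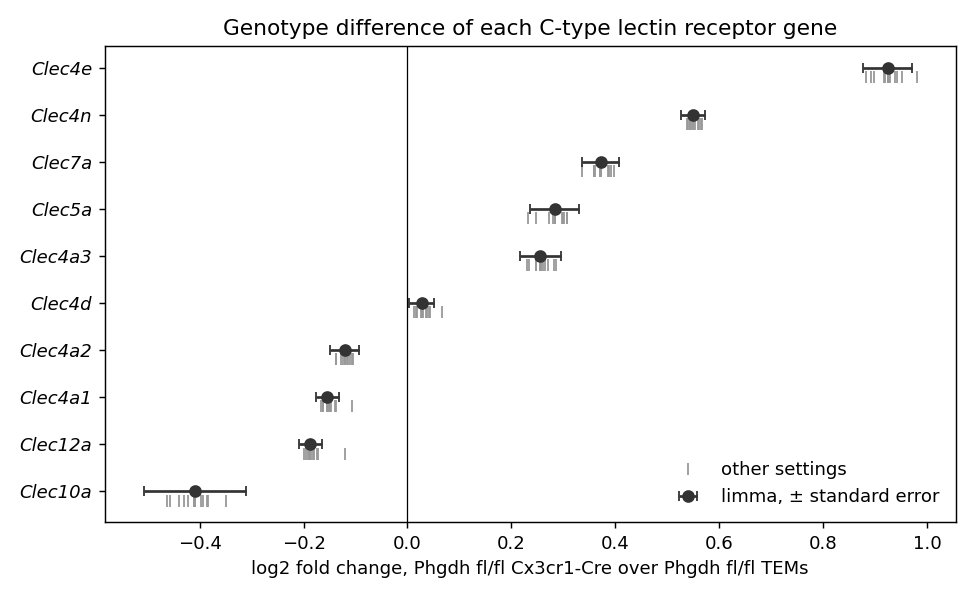
Log2 fold change of each receptor gene in the main limma fit (dot, with standard error) and under the other settings tried (grey ticks). Clec4e is at 0.92, Clec4d at 0.03 and Clec10a at −0.41, and no tick lies on the other side of 0 from its dot.

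Compared per exon length, the receptors ranged from 1.33 to 998 FPKM in Phgdh fl/fl TEMs. FPKM was computed here from the recovered reads, the total reads of the sample and the merged exon length of each gene. In Phgdh fl/fl TEMs the mean FPKM was 998 for Clec4d, 451 for Clec4a1, 156 for Clec4n, 95.9 for Clec12a, 30.8 for Clec4a2, 28.7 for Clec7a, 27.5 for Clec4a3, 21.2 for Clec4e, 9.93 for Clec5a and 1.33 for Clec10a. Clec4d alone made up 54.9% of the summed FPKM of the 10 genes in Phgdh fl/fl TEMs and 53.9% in Cre TEMs. The sample ranges of Clec4a2 and Clec7a overlapped in Phgdh fl/fl TEMs, as did those of Clec7a and Clec4a3, so the order within either pair is not larger than the spread, whereas the ranges of Clec4a2 and Clec4a3 did not overlap. In Cre TEMs the mean FPKM of Clec4e was 40.7 and that of Clec4a2 28.6. By mean, Clec4e moved from rank 8 to rank 5 and Clec4a2 from rank 5 to rank 8. The Cre sample ranges of Clec4e (36.1 to 44.1) and Clec7a (35.5 to 38.5) overlapped, so the order of ranks 5 and 6 is not larger than the spread. With the length of the principal transcript in place of merged exons, the mean FPKM in Phgdh fl/fl TEMs was 107 for Clec7a, 44.4 for Clec5a, 41.7 for Clec4e and 2.58 for Clec10a. On that scale Clec12a stood above Clec4n in Phgdh fl/fl TEMs (212 and 180) and Clec4e moved from rank 7 to rank 6. In Phgdh fl/fl TEMs the ranks between the first 2 and the last, Clec10a, thus depended on the transcript lengths used.

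**Figure D3:**
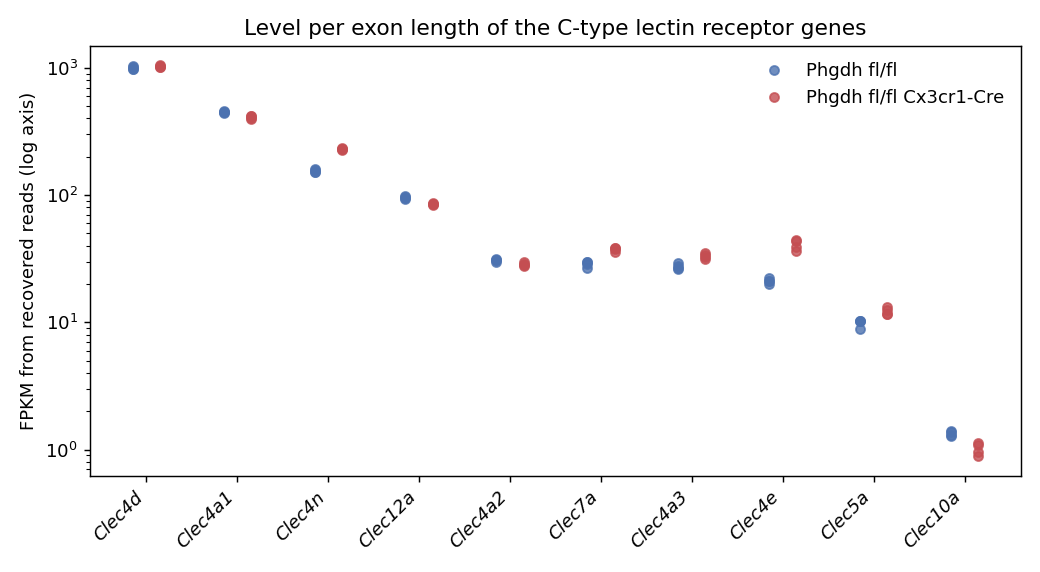
FPKM (log axis) of each receptor gene in every sample of Phgdh fl/fl (blue) and Phgdh fl/fl Cx3cr1-Cre (red) TEMs, ordered by the Phgdh fl/fl mean. Clec4d is at 998 and Clec10a at 1.33 FPKM in Phgdh fl/fl TEMs.

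Shared sequence touched only 2 of the 10 genes. Of the 75-base windows of each principal transcript, the length of the reads, 10.2% of those of Clec10a (145 of 1422) also occurred in Mgl2, and 4.03% of those of Clec4a2 (97 of 2407) occurred in Clec4a4 or Clec4b1. No window of the other 8 genes was found in another gene. The longest run common to Clec10a and Mgl2 is 183 coding bases. It is shown because reads of these galactose-lectin genes that lie within it cannot be assigned by sequence. The run covers bases 820 to 1002 of the Clec10a transcript and does not hold all of the shared windows.
Clec10a and Mgl2: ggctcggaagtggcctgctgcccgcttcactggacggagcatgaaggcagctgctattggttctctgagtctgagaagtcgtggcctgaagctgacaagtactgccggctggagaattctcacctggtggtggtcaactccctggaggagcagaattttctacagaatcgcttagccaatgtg

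Mgl2 itself had a mean normalized count of 2.23 in Phgdh fl/fl and 6.80 in Cre TEMs, below the filter, beside 167 and 126 for Clec10a. Clec4a4 was also near the floor, with normalized counts of 7.44, 5.52, 7.24 and 6.68 against 16.9, 13.5, 7.12 and 17.5 (log2 fold change 0.87, SE 0.36, adjusted p = 0.0572), and its groups overlapped. Clec4b1 rose from 27.1 ± 6.49 to 46.2 ± 10.5 (log2 fold change 0.75, SE 0.22, adjusted p = 0.0077). Both are far below Clec4a2 in counts.

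Neighbours in the Clec4 cluster included genes that rose and genes that fell. Clec4a3 starts 30.7 kb from Clec4a1 and rose where Clec4a1 fell. Clec4d starts 27.8 kb from the start of Clec4e, and Clec4n, the next gene of the cluster analysed, lies beyond it. Near Clec7a, the start of Clec12a lies 130 kb away, and Clec7a rose while Clec12a fell. Between them Clec1b, Clec9a and Clec1a were below the filter. Clec2d, a ligand of the NK receptor family, fell by 0.18 and Cd69, an early activation marker, rose by 0.32 (adjusted p = 6.6e-05 and 0.00274).

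**Figure D4:**
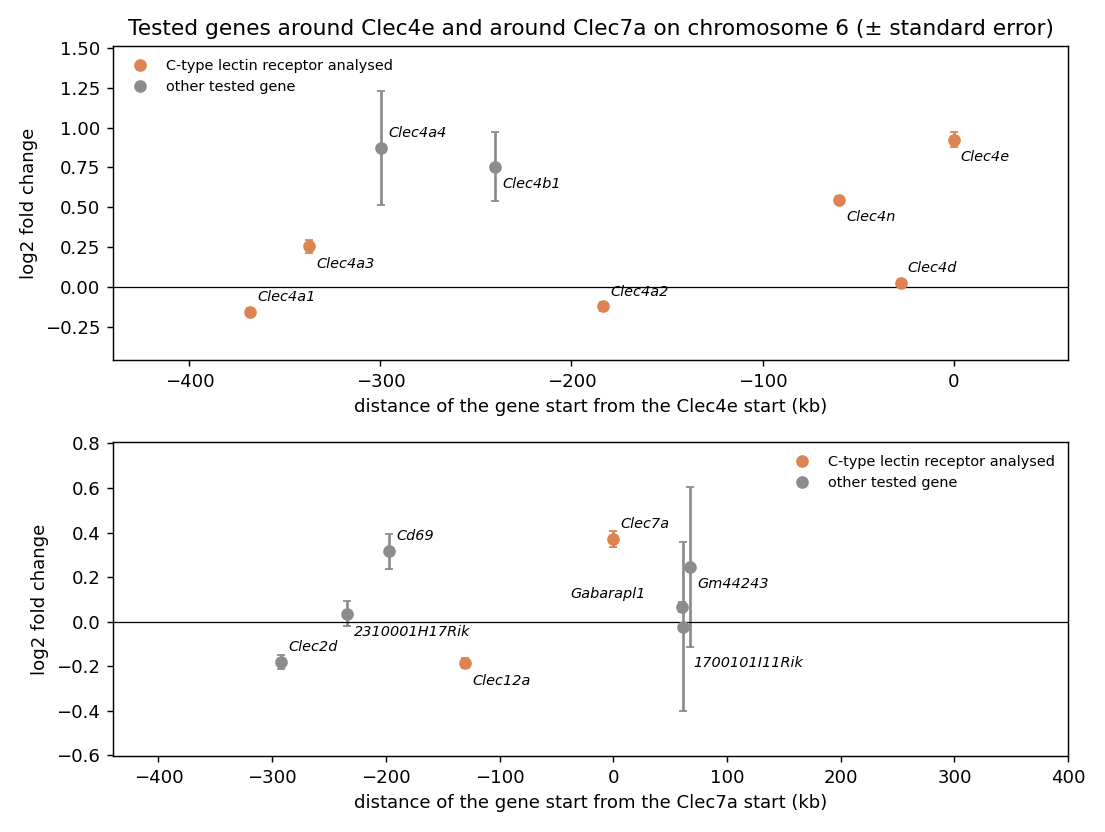
Log2 fold change with its standard error (vertical axis) of the tested genes within 400 kb of the Clec4e start (top) and the Clec7a start (bottom), against distance in kb, with the receptors analysed in orange. Clec4a1 at −0.15 lies next to Clec4a3 at 0.26, and Clec4d at 0.03 next to Clec4e at 0.92.

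Of 74 other genes with a C-type lectin domain, 38 were in the table and 20 were tested. Among these 7 rose and 5 fell (median log2 fold change 0.07), so that 60% were called, beside 41% of all genes tested. The largest changes were Klrb1b at 1.10, Clec4b1 at 0.75, Ly75 at 0.45, Layn at 0.41 and Cd72 at −0.33. Klrb1b encodes an NK-type receptor and had a mean normalized count of only 13.7 and 29.2 in the 2 groups. Mrc1, the mannose receptor and a usual marker of alternatively activated macrophages, rose from 10426 ± 253 to 12623 ± 362 (log2 fold change 0.28, adjusted p = 1.7e-08), whereas Clec10a, a marker of the same state, fell. Clec9a (0.716 and 3.04) and Olr1 (7.58 and 8.55) had mean normalized counts below the filter.

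Of the 20 genes for adaptors and proximal kinases, 7 rose and 7 fell (median log2 fold change −0.0055). The share called was 70%, beside 41% of all genes tested. Fcer1g, whose FcRγ serves Clec4e, Clec4d and Clec4n, had normalized counts of 22649, 23320.2, 24071 and 24355 against 23589, 23539, 23465 and 23094, with a log2 fold change of −0.01 (adjusted p = 0.764); its sign was positive under quantile normalization, scaling to total reads and without Phgdh fl/fl replicate 4. Tyrobp, which encodes DAP12, the partner of Clec5a, fell by 0.13 (adjusted p = 5.2e-05). Syk, the kinase, rose by 0.18 (adjusted p = 2.0e-06), Src by 0.57 and Lat2, a membrane adaptor, by 0.18, and Vav1, an exchange factor, fell by 0.14.

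In the list of the CARD9 complex and IKK branch, 4 of 12 genes rose and 0 fell (median 0.04), so that 33.3% were called, beside 41% of all genes tested. Malt1, the protease of the complex, rose by 0.37 (adjusted p = 1.3e-07), as did Rubcn by 0.11 and Ikbkg by 0.09. Card9 had a log2 fold change of −0.07 (adjusted p = 0.208) and Bcl10 one of −0.06 (adjusted p = 0.128). Without Phgdh fl/fl replicate 1 the list had 7 called genes, 6 higher and 1 lower, the lower one being Bcl10 at −0.08 (adjusted p = 0.0209).

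Among the 9 inhibitory phosphatases and adaptors, 3 rose and 4 fell, so that 77.8% were called, beside 41% of all genes tested. Dok2, an adaptor that restrains signalling, fell by 0.53, Ptpn6, which encodes SHP-1, by 0.17 (adjusted p = 3.1e-06) and Dok3 by 0.13. Cbl, a ubiquitin ligase, rose by 0.34 and Ptpn22 by 0.12 (adjusted p = 0.0273), and Ptpn11 stood at −0.06 (adjusted p = 0.103; −0.08 and 0.0187 under quantile normalization). The Ptpn22 call was lost in DESeq2 and in 4 of the fits that left out 1 sample.

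Of 20 genes chosen as outputs of SYK-coupled lectins, 16 were tested, of which 9 rose and 1 fell (median 0.25). The share called was 62.5%, beside 41% of all genes tested, 20.8% higher and 20.3% lower. This list too was chosen with results of these data known. Il6 rose by 0.92, from 19.7 ± 5.99 to 37.7 ± 9.79 normalized counts (adjusted p = 0.00568). Il12b rose by 0.83 (means of 77.6 and 138) and Nos2 by 0.72 (69.0 and 114), also at low counts. Il1rn, which encodes the interleukin-1 receptor antagonist, rose by 0.74. Il10, Tnf, Cxcl2, Egr2, Egr3 and Nfatc1 passed no test. Egr1, an immediate-early transcription factor, fell by 0.70. These cytokine and enzyme genes lie downstream of many receptors besides lectins, and neither their relation to Clec4e nor that of the pathway genes was tested.

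**Figure D5:**
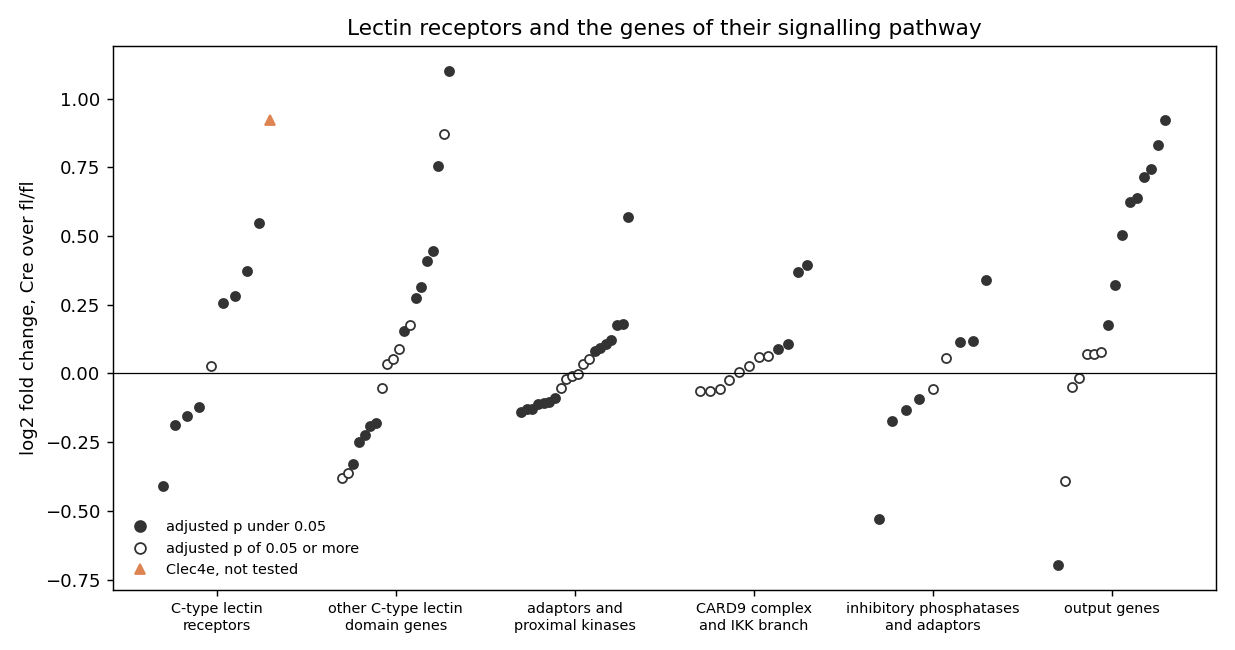
Log2 fold change (Cre over fl/fl) of the tested genes among the receptors and in the lectin, signalling and output lists, ordered within the list, with filled circles for an adjusted p under 0.05, open circles for the rest and a triangle for Clec4e, which was not tested. Filled circles lie on both sides of 0 in every list plotted but that of the CARD9 complex.

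Cell type markers were read beside these results, since myeloid lectins are shared by several cell types. The macrophage list had all 7 genes tested and was expressed at high counts. Its summed normalized count was 986516 to 1075520 in Phgdh fl/fl and 973612 to 1049000 in Cre TEMs. Fcgr1, Itgam and Adgre1 were called and fell by 0.40, 0.19 and 0.08, a direction that turned for Adgre1 under quantile normalization (0.17). Csf1r, Cd68, Lyz2 and Mertk were not called, with log2 fold changes from −0.04 to 0.02. Thus 42.9% of the list was called, beside 41% of all genes tested. The neutrophil list had 2 of 10 genes in the table, S100a8 and Mmp8, and both rose, by 0.23 and 0.28, with a summed count of 2155 to 2299 against 2609 to 2822. The monocyte list had 5 of 6 in the table, of which 3 were tested and 1, Ccr2, was called (33.3%), down by 0.86. The list summed to 504 to 552 against 307 to 328, and Ccr2 alone had means of 389 and 214. The dendritic cell list (5 of 8 in the table, 2 tested, 0 called) summed to 44.6 to 75.4 against 68.6 to 98.6. For the lymphocyte list (1 of 7 in the table, 0 tested) the sum was 0 to 4.13 against 0 to 1.95. That of fibroblast and tumour cells (4 of 9, 1 tested, 0 called) was 22.1 to 36.2 against 19.7 to 49.6. The part of the neutrophil and monocyte differences in the receptor results was not tested.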

How the data were processed

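RNA of the 8 samples was prepared with the NEBNext Ultra Directional kit and sequenced as single 75-base reads. The authors mapped the reads to mm10 with TopHat2, counted them per gene with HTSeq 0.6 and compared the groups with DESeq2; the strand setting and gene annotation are not given in the sources used here. The authors deposited 1 signal value for each gene in each sample. It is the read count after division by that sample's size factor and is not scaled by gene length, although the study calls it FPKM. The authors also deposited a mean signal, a log2 fold change, its error and Wald score, and p-values, none of which were used. Whole reads were recovered for 100% of 144353 values above 0 (tolerance 0.01 reads).

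Here limma 3.58.1 in R 4.3.3 (lmFit, eBayes with trend, two-sided, no covariate) was run on the log2 of the normalized count plus 1, for 13629 genes whose mean normalized count reached 10, with Benjamini-Hochberg adjustment. Alternatives were a pseudocount of 0.1, no filter, a minimum mean of 50, quantile normalization, scaling to total reads, no trend, edgeR 4.0.16, DESeq2 1.42.0, a replicate block, each sample left out, and an absolute log2 fold change over 1.5. Principal transcript lengths were added after seeing the data. Samples were grouped by the submitters' labels. Lengths and coordinates came from GENCODE M21, in which 18629 genes were found, and promoters from RefSeq.

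The members and all lists were chosen with earlier results of these data known. The genes named are the 10 members; of each other list the 5 largest changes with an adjusted p under 0.05; Fcer1g, Tyrobp, Syk, Card9, Bcl10, Malt1, Ptpn6, Ptpn11, Mgl2, Mrc1, Clec4a4, Clec4b1, Clec4b2, Clec9a and Olr1; and Phgdh and Cx3cr1. Genes near Clec7a were named by position, and the macrophage and output genes that passed no test were named as sets. Clec4b2 was not used here. The values of 1 gene of the lists are not reported here, and it is included in the counts. Pairs of samples of 1 genotype differed by a chi-square per gene of 1.79 to 6.20 and were kept as separate replicates. Precision is set by counting for genes with few reads and by the spread between samples for abundant ones. p-values measure the spread between these samples; the number of mice behind them is not given in the sources used here.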

Additional observations from a re-analysis of the deposited data

Results flagged for a closer look

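The results below were picked out because 1 sample of a group of 4 lay far from the other 3, with a gap to the nearest sample over 0.829 of the whole range of the group. Chance alone flags about 1 in 20 groups. Among the receptors this held for Clec5a, at a normalized count of 1483 in Phgdh fl/fl replicate 2 beside a nearest value of 1707. It also held for Tyrobp at 28306 in Phgdh fl/fl replicate 1 (nearest 29455), Ptpn6 at 17505 in Phgdh fl/fl Cx3cr1-Cre replicate 4 (nearest 17857), Ptpn22 at 971 in the same sample (nearest 1010) and S100a8 at 576, again in that sample (nearest 629). Clec9a was at 2.86 in Phgdh fl/fl replicate 4 and at 0 in the other fl/fl samples, and Olr1 was at 10.4 in Phgdh fl/fl Cx3cr1-Cre replicate 2 (nearest 8.13), both below the filter.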

How the results depend on the processing

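The number of receptors called was 8 under each other test, filter, scaling and left-out sample, but 0 had an absolute log2 fold change over 1.5, which 55 of 13629 genes had (0.404%). Leaving out 1 sample gave 4966 to 5917 called genes, 12 to 14 other lectin domain genes, 12 to 14 adaptors and kinases, 4 to 7 genes of the CARD9 list (7 without Phgdh fl/fl replicate 1), 5 to 8 inhibitory genes, 10 to 12 output genes, and a log2 fold change of Phgdh between −2.29 and −1.88. Fcer1g turned to 0.06 under quantile normalization (adjusted p = 0.032), 0.0047 with total reads and 0.0050 without Phgdh fl/fl replicate 4 (range over left-out samples −0.030 to 0.0050), and Adgre1 to 0.17 under quantile normalization; the cause was not tested. Ptpn22 missed the threshold in DESeq2 and in 4 leave-outs (adjusted p 0.057 to 0.10). Clec4a4 passed it in edgeR, without trend and without Phgdh fl/fl Cx3cr1-Cre replicate 3 (adjusted p 0.018 to 0.036), Ptpn11 under quantile normalization (0.0187) and Bcl10 without Phgdh fl/fl replicate 1 (0.0209). The labels do not say whether replicate numbers pair the samples. Same-number correlations of deviations between the genotypes were all positive, at 0.063 to 0.126, and different-number ones were −0.124 to 0.135. Not every sample matched its own number best. Pairs within numbers 1 and 4, or within 2 and 3, all correlated positively (0.048 to 0.135). Pairs between these sets were all negative (−0.124 to −0.036). No fit used this split as a block, and its source was not tested. Since the same-number and different-number ranges overlap, these values cannot decide whether samples of 1 number were paired or shared a batch. The fit with the replicate block called 5597 genes and again 8 receptors, with Phgdh at −2.15. Counts limit genes near the filter, such as Clec4a4 and Klrb1b.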
